A study of Mus musculus with 12 samples.

Results

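Sialyltransferases are enzymes of the Golgi that add sialic acid, a negatively charged sugar, to the ends of the glycans on glycoproteins and glycolipids. Transcripts of 8 of them and of *Gcnt1* were followed here, 9 genes of the 12809 in the table. The genes were chosen by symbol from a list, drawn up with earlier results of these data known, and all 9 listed symbols were present. Counts of the 9 set beside shares of all tested genes are therefore a description. Each symbol belonged to a single gene, and all 9 passed the filter on low values (1 CPM in 3 libraries), *Gcnt1* only through the groups where it was high. The family is divided by the bond it makes. Enzymes of the St3gal group cap galactose, St6gal1 caps galactose through another position and is the main source of ligands for the B cell lectin CD22, and enzymes of the St8sia group extend an existing sialic acid. Gcnt1 is the core 2 enzyme, which starts a second branch on O-glycans, whereas St3gal1 caps the unbranched core 1 form of the same glycan. In T cells these glycans are known as ligands of selectins, galectins and Siglecs, and the branched and capped forms are known to change as T cells mature and respond.

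The libraries were made from lymph node (LN) T cells sorted by coreceptor, 3 in each of 4 groups. B6 CD4 and B6 CD8 T cells came from C57BL/6 mice. FlipFlop CD4 and FlipFlop CD8 T cells came from mice in which both copies of chromosome 6 carry an altered *Cd8a* locus that encodes CD4 (the 4in8 allele, made in 129R1 embryonic stem cells) and an altered *Cd4* locus that encodes CD8αβ.1 (the 8in4 allele, made in B6 embryonic stem cells). All mice were female in the labels, with an age of 10 weeks for B6 and 14 weeks for FlipFlop, so strain and age cannot be told apart. Nothing in the labels says that the 3 libraries of a group came from separate mice, and the p-values then measure the spread between these libraries, which may be technical.

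Transcripts of *Cd4* and *Cd8a* followed the sort. *Cd4* measured 1022 CPM on average in B6 CD4 and 669.7 in FlipFlop CD4 libraries, against 1.46 in B6 CD8 and 42.2 in FlipFlop CD8, and *Cd8a* 1489 in B6 CD8 and 145 in FlipFlop CD8, against under 1 CPM in both CD4 groups. *Cd8b1* was at 1829 CPM in FlipFlop CD4 libraries, near the 1885 of B6 CD8, with 23.8 in B6 CD4 and 137 in FlipFlop CD8. *Zbtb7b*, which encodes the helper-lineage factor ThPOK, measured 196 ± 5.99 CPM (SD, n = 3) in B6 CD4, 168 ± 5.62 in FlipFlop CD8, 1.55 ± 0.42 in B6 CD8 and 2.29 ± 0.46 in FlipFlop CD4 T cells. *Runx3*, which encodes the cytotoxic-lineage factor, was lower in B6 CD4 (63.9 CPM) and FlipFlop CD8 (57.2) than in B6 CD8 (111) and FlipFlop CD4 (138) libraries. B6 CD4 and FlipFlop CD8 are therefore called the helper-lineage groups here, as in the study, and B6 CD8 and FlipFlop CD4 the cytotoxic-lineage groups. CPM are reads relative to the size of a library, scaled by the authors with a factor for its composition (TMM), and the libraries held about 26600000 to 33100000 reads on the listed genes. At that depth 3 reads, the limit that a count of 0 allows, are 0.0857 to 0.120 CPM, and every value of the 9 genes lay above it. This limit covers counting error only. Differences were taken between values of log2(CPM + 0.5), so that low genes appear to change less than they do in CPM, and are given with their standard error (SE) and limma's Benjamini-Hochberg adjusted p over 11595 genes. A gene was called, and is said to rise or fall, at an adjusted p under 0.05.

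The genes lie on 8 chromosomes of GRCm38 (GENCODE M21). *St8sia6* (ENSMUSG00000003418.11) is on the minus strand of chromosome 2 from 13651021 to 13794064, *St8sia4* (ENSMUSG00000040710.10) on the minus strand of chromosome 1 from 95587682 to 95667571, and *St8sia1* (ENSMUSG00000030283.7) on the minus strand of chromosome 6 from 142821545 to 142964452. *St3gal1* (ENSMUSG00000013846.10) is on the minus strand of chromosome 15 from 67102875 to 67176830, *St3gal2* (ENSMUSG00000031749.12) on the plus strand of chromosome 8 from 110919922 to 110972480, *St3gal4* (ENSMUSG00000032038.7) on the minus strand of chromosome 9 from 35046576 to 35119268, and *St3gal6* (ENSMUSG00000022747.17) on the minus strand of chromosome 16 from 58468125 to 58524243. *St6gal1* (ENSMUSG00000022885.16) is on the plus strand of chromosome 16 from 23224740 to 23360350, and *Gcnt1* (ENSMUSG00000038843.18) on the minus strand of chromosome 19 from 17326141 to 17372844. *St8sia1* alone shares chromosome 6 with the altered coreceptor loci, 17.9 Mb from *Cd4* and 71.4 Mb from *Cd8a*. Genes of the opposite strand that are also in the table overlap *St3gal6* (*Dcbld2*), *St6gal1* (*BC106179*) and *St3gal4* (*4930581F22Rik*), and the sources used here do not say whether strand was used in counting. The highest level of these in any library was 1.77, 7.76 and 2.36 CPM.

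Promoter windows of 300 bases, from 250 before to 50 after a transcription start, were taken from RefSeq (GRCm38.p6) for 7 of the 9 genes, in 12 windows. They were searched on both strands for short motifs of T cell factors: TGTGGT for Runx, CTTTGA for TCF/LEF and AGATAA for GATA factors. These letters occur in 16.8%, 16.0% and 11.2% of the 32851 windows of all genes. The windows shown belong to *St8sia6*, the gene with the widest difference between the groups, to *St3gal6*, which ran the other way, and to *St8sia4*. All are on the minus strand and printed 5′ to 3′ along the gene, with the matches in capitals, at chr2:13793471-13793770, chr16:58524204-58524503 (the first of 2 starts) and chr1:95667545-95667844.
St8sia6: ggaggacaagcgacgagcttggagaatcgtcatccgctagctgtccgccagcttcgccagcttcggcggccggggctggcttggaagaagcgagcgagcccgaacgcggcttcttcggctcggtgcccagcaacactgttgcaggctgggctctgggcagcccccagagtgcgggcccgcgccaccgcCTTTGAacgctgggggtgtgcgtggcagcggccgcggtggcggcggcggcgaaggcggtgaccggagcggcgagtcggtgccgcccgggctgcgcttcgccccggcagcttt
St3gal6: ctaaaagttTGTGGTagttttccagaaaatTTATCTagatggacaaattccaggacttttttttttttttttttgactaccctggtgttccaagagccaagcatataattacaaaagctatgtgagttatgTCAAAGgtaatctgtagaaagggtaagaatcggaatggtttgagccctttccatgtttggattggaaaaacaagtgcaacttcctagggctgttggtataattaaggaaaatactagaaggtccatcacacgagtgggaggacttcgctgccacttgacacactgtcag
St8sia4: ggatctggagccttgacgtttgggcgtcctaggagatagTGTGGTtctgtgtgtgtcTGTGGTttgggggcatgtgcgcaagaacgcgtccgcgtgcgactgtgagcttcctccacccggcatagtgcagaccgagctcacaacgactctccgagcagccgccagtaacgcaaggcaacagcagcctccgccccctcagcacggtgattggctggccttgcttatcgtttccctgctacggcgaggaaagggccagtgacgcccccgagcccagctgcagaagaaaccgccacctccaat
The *St8sia6* window holds 1 TCF/LEF match, 62 bases before the start, and 72.0% of its bases are G or C. The *St3gal6* window has 38.7% G and C and 1 match of each motif, and the *St8sia4* window has 2 Runx matches. Beside these 3 windows, 1 of the 3 *St6gal1* windows held a GATA match, and the other 8 of the 12 held none of the motifs: the second *St3gal6* window, 2 of *St6gal1*, all 3 of *Gcnt1*, and those of *St8sia1* and *St3gal4*. These matches are a description of the letters and carry no information on binding.

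Per kilobase of exon, which allows levels of different genes to be compared, *St6gal1* was the highest of the 9 in all 4 groups, with mean levels of 73.9 CPM per kb in B6 CD4, 75.4 in FlipFlop CD8, 51.8 in B6 CD8 and 52.6 in FlipFlop CD4 T cells. *St3gal1* followed in each group at 20.1 to 27.0 CPM per kb, and *Gcnt1* was the lowest in each, from 0.0820 in B6 CD8 to 2.31 in FlipFlop CD8 T cells. The place of *St8sia6* in this order depended on the group. It was the third highest of the 9 in B6 CD4 (20.2 CPM per kb) and FlipFlop CD8 (20.9) and the eighth in B6 CD8 T cells (0.460), where it lay beside *St3gal2* (0.462). In FlipFlop CD4 T cells it was the sixth (4.89), next to *St3gal6* (5.37).

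**Figure D1:**
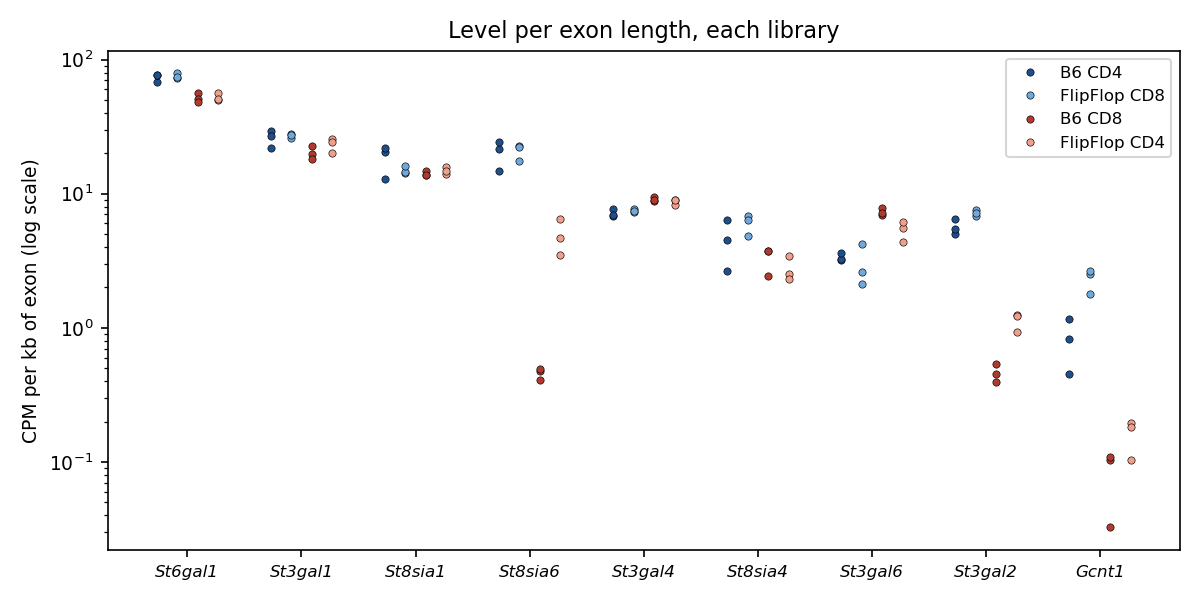
Level of each of the 9 genes in CPM per kb of exon (vertical axis, log scale), 1 point per library, with the 4 groups side by side in different colors. *St6gal1* is the highest and *Gcnt1* the lowest in every group, and *St8sia6* moves from 0.460 CPM per kb on average in B6 CD8 to 4.89 in FlipFlop CD4 and over 20 in the helper-lineage groups.

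To find which of these enzymes differ between the lineages of the normal strain, B6 CD4 were compared with B6 CD8 T cells. Of the 9 genes, 7 were called, 5 higher in B6 CD4 (*St8sia6*, *St3gal2*, *Gcnt1*, *St6gal1* and *St3gal1*) and 2 lower (*St3gal6* and *St3gal4*). Of all tested genes 25.4% were called, 14.6% higher and 10.8% lower. The libraries of the groups did not overlap for 6 of the 9 and for 37.8% of all tested genes. The same comparison in FlipFlop mice asks whether these differences follow the coreceptor protein or the lineage. Again 7 of 9 were called, but now 2 were higher in CD4 T cells (*St3gal6* and *St3gal4*) and 5 lower (*St8sia6*, *St3gal2*, *Gcnt1*, *St8sia4* and *St6gal1*). Of all tested genes 31.3% were called, 15.3% higher and 16.0% lower. All but *St8sia1*, 8 of the 9, had no overlap between the FlipFlop groups, beside 47.2% of all tested genes. The sign was opposite in the strains for 9 of 9 genes, although that of *St8sia1* in FlipFlop mice (-0.0097) turned without FlipFlop CD8 replicate 3 (0.040) or FlipFlop CD4 replicate 2 (0.037), and for 8150 of all 11595 tested genes (70.3%). The 2 comparisons share no library. The median size of the difference over the 9 genes was 0.51 in B6 mice and 0.88 in FlipFlop mice, beside 0.17 and 0.19 over all tested genes. Since the 9 were chosen with earlier results of these data known, these counts and medians are a description.

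The lineage effect is the mean log2 level of B6 CD4 and FlipFlop CD8 minus that of B6 CD8 and FlipFlop CD4 T cells, which also tests whether the CD4 minus CD8 difference differs between the strains. It was called for 8 of 9 genes, 6 upward and 2 downward in the helper-lineage groups, beside 39.3% of all tested genes (19.9% upward and 19.4% downward). For a list chosen with earlier results of these data known, this count is a description and no test of the list. The direction of these calls over all genes depended on the scaling. Without the TMM factor the calls were 2084 higher and 916 lower in B6 (1688 and 1256 with it), 787 and 2957 in FlipFlop (1779 and 1854 with it) and 3566 and 1160 for the lineage effect (2306 and 2248 with it), while 7, 6 and 8 of the 9 genes were called. The helper-lineage and cytotoxic-lineage libraries did not overlap, 6 against 6, for 6 of the 9 genes and for 16.9% of all tested genes. With a stricter rule, an unadjusted p under 0.0001 and more than a 5-fold change, the lineage effect kept 3 genes, *St8sia6*, *St3gal2* and *Gcnt1*, where 1.61% of all tested genes passed. *Gcnt1* had entered the test through the helper-lineage groups alone, and its place in these counts is a description. At these limits 3 of the 9 passed in B6 mice (1.55% of all tested genes), 2 in FlipFlop mice (2.16%), 1 in FlipFlop CD4 against B6 CD8 (0.474%), and 0 in FlipFlop CD8 against B6 CD4 (0.405%), for the strain effect (0.345%) and for the coreceptor effect (0.0172%). At an adjusted p under 0.05 with at least a 2-fold change, 4 of the 9 passed in B6 mice (7.67% of all tested genes), 4 in FlipFlop mice (9.06%), 3 for the lineage effect (7.95%), 2 in FlipFlop CD4 against B6 CD8 (1.93%), 1 in FlipFlop CD8 against B6 CD4 (4.35%), 2 for the strain effect (1.74%) and 1 for the coreceptor effect (0.638%).

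**Figure D2:**
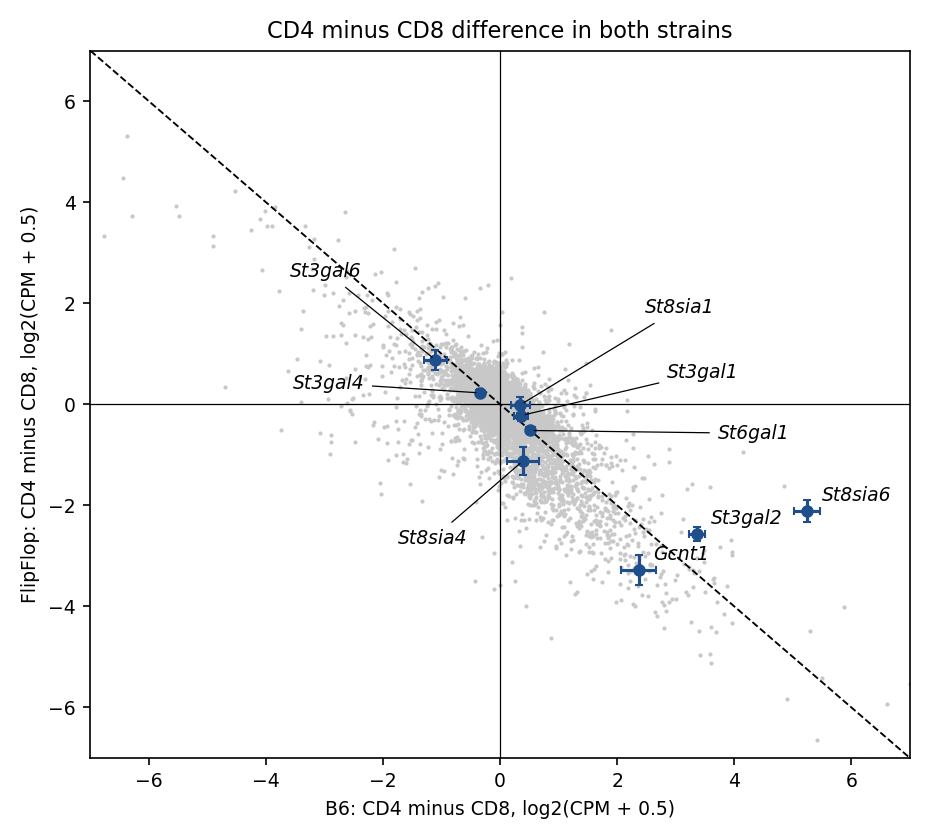
CD4 minus CD8 difference on the log2(CPM + 0.5) scale in B6 (horizontal axis) and in FlipFlop T cells (vertical axis) for the 9 genes (blue, bars are standard errors) and all 11595 tested genes (gray). The dashed line marks equal size with opposite sign. *St8sia6* lies to the right of the line, at 5.24 and -2.12, and *Gcnt1* below it, at 2.37 and -3.28.

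Among the enzymes that extend sialic acid, *St8sia6*, which makes disialic acid mainly on O-glycans, had the widest difference of the 9 genes. It measured 113, 164 and 187 CPM in B6 CD4 (155 on average), 135, 175 and 171 in FlipFlop CD8, 3.11, 3.68 and 3.78 in B6 CD8, and 26.7, 49.9 and 36.0 in FlipFlop CD4 T cells. The helper-lineage groups overlapped each other, every B6 CD8 library lay far below them, and the FlipFlop CD4 libraries lay between, overlapping none. In mean CPM it was 43.9-fold higher in B6 CD4 than in B6 CD8 libraries, or by 5.24 on the log2 scale (SE 0.22, adjusted p = 5.49e-09). In FlipFlop mice CD8 T cells were 4.27-fold higher than CD4 T cells, a log2 difference of -2.12 for CD4 minus CD8 (SE 0.22, adjusted p = 1.08e-05). The lineage effect was 3.68 (SE 0.15, adjusted p = 2.27e-09).

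*St8sia6* also differed between the groups of the cytotoxic lineage. FlipFlop CD4 T cells had 10.6-fold the mean level of B6 CD8 T cells (log2 difference 3.20, SE 0.22, adjusted p = 1.64e-06) and 23.4% of the level of FlipFlop CD8 T cells. From B6 CD4 to FlipFlop CD8 the log2 difference was 0.072 (95% interval -0.40 to 0.54, adjusted p = 0.819), and it was -0.14 (adjusted p = 0.684) without B6 CD4 replicate 1, the lowest library of its group. The coreceptor effect, which takes the mean of both CD4 groups minus that of both CD8 groups and also tests whether these strain differences differ, was called at 1.56 (SE 0.15, adjusted p = 1.27e-04). *Zbtb7b* in FlipFlop CD4 T cells was at 1.36% of its level in FlipFlop CD8 T cells, and in B6 CD8 T cells at 0.790% of its level in B6 CD4 T cells, with a FlipFlop CD4 minus B6 CD8 difference of 0.45 (SE 0.14, adjusted p = 0.0735). Whether it differed from *St8sia6* in this was not tested.

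*St8sia4* encodes a polysialyltransferase, which builds long sialic acid chains on carriers such as NCAM, neuropilin-2 and CCR7. It measured 53.7, 90.4 and 129 CPM in B6 CD4, 97.3, 137 and 127 in FlipFlop CD8, 48.6, 75.0 and 75.4 in B6 CD8, and 50.7, 46.8 and 69.1 in FlipFlop CD4 T cells. The B6 groups overlapped and the FlipFlop groups did not. It was lower in FlipFlop CD4 than in FlipFlop CD8 T cells by a log2 difference of -1.12 (SE 0.28, adjusted p = 0.00881), and its lineage effect was 0.76 (SE 0.20, adjusted p = 0.00898). The B6 difference of 0.39 (SE 0.28, adjusted p = 0.359) did not pass, and rested on B6 CD4 replicate 1, without which it was 0.73 (adjusted p = 0.0396).

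*St8sia1* encodes GD3 synthase, which adds sialic acid to the ganglioside GM3. It measured 120.0, 191 and 206 CPM in B6 CD4, 134, 136 and 150 in FlipFlop CD8, 129, 139 and 129 in B6 CD8, and 149, 130.0 and 139 in FlipFlop CD4 T cells. All 4 groups overlapped, with the highest and the lowest library both in B6 CD4. B6 CD4 minus B6 CD8 was 0.35 on the log2 scale (SE 0.16, adjusted p = 0.134) and the FlipFlop difference was -0.0097 (95% interval -0.35 to 0.33, adjusted p = 0.973), and the lineage effect of 0.18 (SE 0.11, adjusted p = 0.232) made it the only one of the 9 that was not called. Without B6 CD4 replicate 1 the B6 difference was 0.59 (adjusted p = 1.22e-04) and the lineage effect 0.30 (adjusted p = 4.65e-04).

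Among the enzymes that cap galactose, *St3gal2*, which acts on O-glycans and gangliosides, had a pattern like that of *St8sia6*. It measured 25.4, 32.8 and 27.5 CPM in B6 CD4, 34.4, 38.3 and 36.0 in FlipFlop CD8, 1.98, 2.72 and 2.29 in B6 CD8, and 4.73, 6.31 and 6.13 in FlipFlop CD4 T cells. No group overlapped another. CD4 minus CD8 was 3.36 on the log2 scale in B6 (SE 0.13, adjusted p = 4.32e-09) and -2.57 in FlipFlop T cells (SE 0.13, adjusted p = 3.87e-08), and the lineage effect was 2.96 (SE 0.09, adjusted p = 2.52e-10), the smallest p of the 9. FlipFlop CD4 T cells were 2.46-fold above B6 CD8 T cells in mean CPM, or by 1.13 on the log2 scale (SE 0.13, adjusted p = 1.96e-04). FlipFlop CD8 T cells exceeded B6 CD4 T cells by 0.34 (SE 0.13, adjusted p = 0.0736), which passed with the replicate number as a block (adjusted p = 0.0133), without the TMM factor (0.51, adjusted p = 0.0277) and without B6 CD4 replicate 2 (0.45, adjusted p = 0.0401). The coreceptor effect of 0.40 (SE 0.09, adjusted p = 0.0308) was lost without the TMM factor (0.34, adjusted p = 0.0983) and without any of 8 single libraries (0.34 to 0.42), among them all of FlipFlop CD8, FlipFlop CD4 replicates 2 and 3, B6 CD8 replicates 1 and 3 and B6 CD4 replicate 2.

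*St3gal1*, the core 1 capping enzyme that competes with Gcnt1 for the same glycan, differed little. It measured 151, 199 and 183 CPM in B6 CD4, 177, 191 and 187 in FlipFlop CD8, 155, 134 and 124 in B6 CD8, and 138, 174 and 167 in FlipFlop CD4 T cells. The 2 B6 groups overlapped, since the lowest B6 CD4 library was below the highest B6 CD8 library, whereas the FlipFlop groups did not overlap. The log2 difference was 0.36 in B6 (SE 0.12, adjusted p = 0.0401) and -0.22 in FlipFlop T cells (SE 0.12, adjusted p = 0.183), with a lineage effect of 0.29 (SE 0.08, adjusted p = 0.0143). The B6 call was lost without a mean-variance trend (adjusted p = 0.0569), in a fit of the 6 B6 libraries (adjusted p = 0.0891) and without any of 7 libraries (0.27 to 0.36), which were B6 CD4 replicates 2 and 3, B6 CD8 replicates 2 and 3 and each FlipFlop CD8 library.

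*St3gal4* and *St3gal6* cap N-acetyllactosamine and contribute to selectin ligands, and both were lower in the helper-lineage groups. *St3gal6* measured 19.7, 20.3 and 22.4 CPM in B6 CD4, 26.2, 13.0 and 16.0 in FlipFlop CD8, 42.9, 48.1 and 44.7 in B6 CD8, and 34.5, 27.0 and 37.9 in FlipFlop CD4 T cells. The cytotoxic-lineage libraries were all above the helper-lineage libraries, and FlipFlop CD4 were all below B6 CD8 libraries. The log2 difference was -1.10 in B6 (SE 0.20, adjusted p = 0.00126) and 0.88 in FlipFlop T cells (SE 0.20, adjusted p = 0.00506), and the lineage effect was -0.99 (SE 0.14, adjusted p = 1.16e-04). FlipFlop CD4 minus B6 CD8, at -0.46 (SE 0.20, adjusted p = 0.198), passed only without FlipFlop CD8 replicate 1, the highest of its group (adjusted p = 0.0485).

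*St3gal4* measured 22.4, 19.8 and 20.3 CPM in B6 CD4, 22.4, 21.2 and 21.9 in FlipFlop CD8, 25.8, 27.5 and 26.3 in B6 CD8, and 26.4, 24.2 and 26.3 in FlipFlop CD4 T cells. The 6 cytotoxic-lineage libraries were all above the 6 helper-lineage libraries. CD4 minus CD8 was -0.34 on the log2 scale in B6 (SE 0.07, adjusted p = 0.00343) and 0.23 in FlipFlop T cells (SE 0.07, adjusted p = 0.0309), and the lineage effect was -0.28 (SE 0.05, adjusted p = 6.94e-04). The FlipFlop value depended on the scaling, being 0.053 (adjusted p = 0.592) without the TMM factor, and its call was lost without any FlipFlop CD8 library or without FlipFlop CD4 replicate 1 or 3 (0.20 to 0.24).

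*St6gal1*, the highest of the 9 genes, was shifted by about the same amount in the strains. It measured 336, 377 and 376 CPM in B6 CD4, 361, 387 and 364 in FlipFlop CD8, 277, 251 and 236 in B6 CD8, and 247, 277 and 251 in FlipFlop CD4 T cells. The 6 helper-lineage libraries were all above the 6 cytotoxic-lineage libraries, and groups of the same lineage overlapped. CD4 minus CD8 was 0.51 on the log2 scale in B6 (SE 0.08, adjusted p = 3.64e-04) and -0.52 in FlipFlop T cells (SE 0.08, adjusted p = 2.87e-04), and the lineage effect was 0.52 (SE 0.06, adjusted p = 1.08e-05). In mean CPM these are 1.43-fold in each strain.

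*Gcnt1*, the core 2 enzyme, was the rarest transcript. It measured 2.63, 6.65 and 4.78 CPM in B6 CD4, 14.5, 15.2 and 10.2 in FlipFlop CD8, 0.187, 0.600 and 0.629 in B6 CD8, and 1.12, 1.05 and 0.595 in FlipFlop CD4 T cells. FlipFlop CD8 libraries were all above B6 CD4 libraries, which were all above those of the cytotoxic-lineage groups. The log2 difference was 2.37 in B6 (SE 0.30, adjusted p = 7.54e-05) and -3.28 in FlipFlop T cells (SE 0.30, adjusted p = 3.77e-06), and the lineage effect was 2.83 (SE 0.21, adjusted p = 3.78e-07). It reached 1 CPM in 6 of 6 helper-lineage but only 2 of 6 cytotoxic-lineage libraries, so that it passed the filter through the groups where it was high. In the fit of all genes of the table, without the 1 CPM filter, the *Gcnt1* lineage effect had an adjusted p of 3.61e-07, the B6 difference 7.43e-05 and the FlipFlop difference 3.55e-06. The authors had already filtered the table on low values at a limit that is not given. That refit therefore cannot remove the selection, and the *Gcnt1* differences between the lineages are a description. Here the groups of the helper lineage differed. FlipFlop CD8 T cells had 2.84-fold the mean level of B6 CD4 T cells (log2 difference 1.47, SE 0.30, adjusted p = 0.00472), while FlipFlop CD4 exceeded B6 CD8 T cells by 0.56 (SE 0.30, adjusted p = 0.288). The coreceptor effect, the test of the difference between these strain differences, was -0.46 (adjusted p = 0.271), or adjusted p = 0.0245 with the replicate number as a block.

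**Figure D3:**
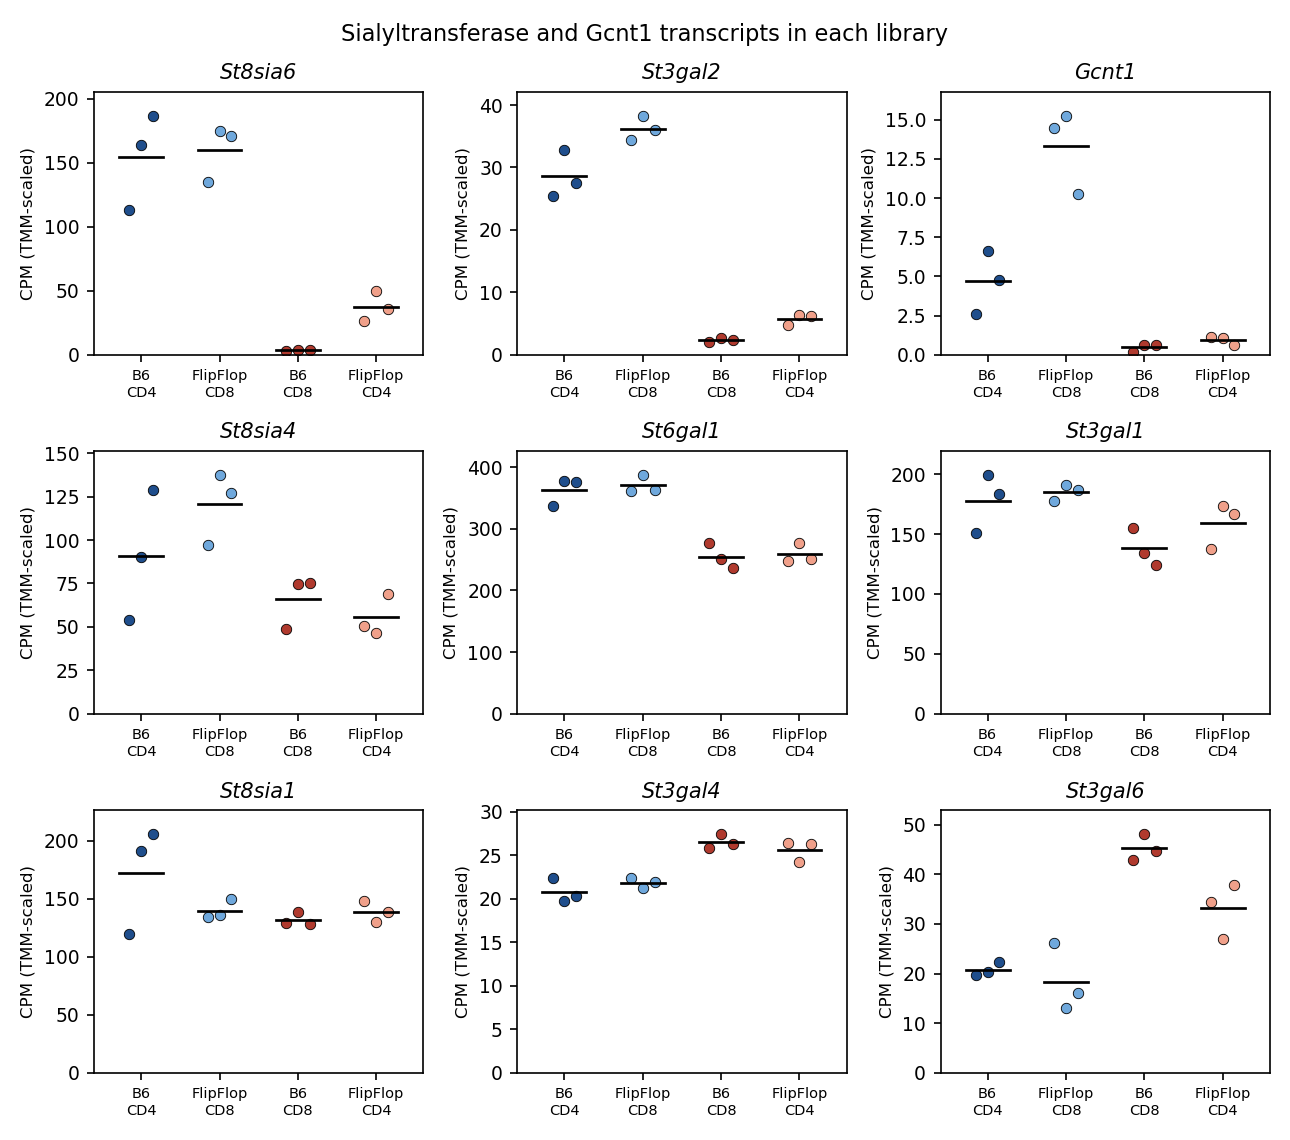
CPM of each of the 9 genes (vertical axes, each from 0) in the 12 libraries, grouped on the horizontal axes as B6 CD4, FlipFlop CD8, B6 CD8 and FlipFlop CD4, with 1 point per library and a line at the group mean. *St8sia6*, *St3gal2* and *Gcnt1* are high in both helper-lineage groups, *St3gal6* and *St3gal4* in both cytotoxic-lineage groups, and FlipFlop CD4 T cells hold *St8sia6* at 26.7 to 49.9 CPM.

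Between groups of the same lineage fewer of the 9 genes were called. In FlipFlop CD4 against B6 CD8 T cells 2 rose (*St8sia6* and *St3gal2*), where 7.92% of all tested genes were called and 4.17% rose. The libraries did not overlap there for 3 genes, *St8sia6*, *St3gal2* and *St3gal6*, and for 32.4% of all tested genes. In FlipFlop CD8 against B6 CD4 T cells 1 rose (*Gcnt1*), where 27.6% of all tested genes were called and 13.2% rose, and 2 did not overlap (*Gcnt1* and *St3gal2*), beside 43.6%. The strain effect, the mean of both FlipFlop groups minus that of both B6 groups, was called for 3 genes, against 31.2% of all tested genes (15.8% upward). These were *St8sia6* (1.64, SE 0.15, adjusted p = 1.99e-05), *Gcnt1* (1.02, SE 0.21, adjusted p = 0.00474) and *St3gal2* (0.74, SE 0.09, adjusted p = 2.46e-04), all higher in FlipFlop T cells. The coreceptor effect was called for 2 genes, *St8sia6* and *St3gal2*, both upward, against 5.49% of all tested genes (1.71% upward). Without the TMM factor the upward and downward calls over all genes were 3219 and 757 for the strain effect (1827 and 1788 with it), 2840 and 548 in FlipFlop CD8 against B6 CD4 (1528 and 1668 with it) and 115 and 591 for the coreceptor effect (198 and 438 with it). The number of all genes called also moved with single libraries. In FlipFlop CD8 against B6 CD4 it was 3196, and 2112 without B6 CD4 replicate 1, 1571 without FlipFlop CD8 replicate 2 and 1527 without FlipFlop CD8 replicate 3. In FlipFlop CD4 against B6 CD8 it was 918, and 490 to 586 without B6 CD8 replicate 2 or 3 or FlipFlop CD4 replicate 2 or 3, and 1566 without B6 CD4 replicate 1. The coreceptor effect had 636, and 352 to 414 without B6 CD8 replicate 2 or 3, FlipFlop CD8 replicate 1 or 2 or FlipFlop CD4 replicate 2, and the strain effect 3615, and 2367 without FlipFlop CD8 replicate 3. Among the 9 genes, *St8sia1*, on the chromosome of the altered loci, was not called in any of these comparisons, but without B6 CD4 replicate 1 its strain effect was -0.22 (adjusted p = 0.00869), its coreceptor effect 0.29 (adjusted p = 0.00747) and its FlipFlop CD8 minus B6 CD4 difference -0.51 (adjusted p = 0.00113). Without FlipFlop CD8 replicate 1, *St3gal6* had a strain effect of -0.48 (adjusted p = 0.00458) and a FlipFlop CD8 minus B6 CD4 difference of -0.51 (adjusted p = 0.0250). *St8sia4* passed in the latter comparison without B6 CD4 replicate 3 (0.77, adjusted p = 0.0403), and *St3gal4* without the TMM factor (0.23, adjusted p = 0.0279).

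Markers of several cell types moved with these differences. The 6 T cell markers summed to 4212 to 5608 CPM in B6 CD4, 3505 to 3999.6 in FlipFlop CD8, 3951 to 4130.1 in B6 CD8 and 3707 to 4207 in FlipFlop CD4, and 3 of them were called lower in FlipFlop CD8 than in B6 CD4. Of all 11595 tested genes 1668 were called lower there. Red blood cell markers summed to 15.9 to 28.8 CPM in B6 and 6.67 to 14.2 in FlipFlop libraries. The 3 NK cell markers in the table summed to 5.58 to 6.17 CPM in B6 CD4, 13.2 to 16.1 in FlipFlop CD8, 4.36 to 9.54 in B6 CD8 and 3.61 to 5.12 in FlipFlop CD4. Only 1 of the 3 was called higher in FlipFlop CD8 than in B6 CD4, where 13.2% of all tested genes rose. From B6 CD4 to FlipFlop CD8, *Klrb1c* averaged 3.52 and 10.8 CPM, *Gzma* 0.833 and 2.21, and *Tyrobp* 1.52 and 1.27. The 4 myeloid markers summed to 84.8 to 97.6 CPM in B6 CD4, 70.6 to 86.4 in FlipFlop CD8, 77.0 to 83.4 in B6 CD8 and 53.2 to 68.7 in FlipFlop CD4, and 3 of them (*Csf1r*, *Itgam* and *Lyz2*) had a called lineage effect, upward in the helper-lineage groups, although *Csf1r* and *Itgam* passed the filter only through those groups. An upward lineage effect was called for 19.9% of all tested genes. The 7 naive T cell markers summed to 5353 to 5723 CPM in B6 CD4, 4380 to 4591 in FlipFlop CD8, 5716 to 5928 in B6 CD8 and 5408 to 5964 in FlipFlop CD4, and 5 of them were called higher in FlipFlop CD4 than in FlipFlop CD8. The share of all tested genes called higher there was 15.3%. The 6 regulatory T cell markers (*Foxp3*, *Il2ra*, *Ctla4*, *Ikzf2*, *Nrp1* and *Ikzf4*) summed to 295 to 403 CPM in B6 CD4, 865 to 1031 in FlipFlop CD8, 17.1 to 23.9 in B6 CD8 and 31.8 to 37.0 in FlipFlop CD4 T cells. All 6 rose in FlipFlop CD8 against B6 CD4 T cells, and 4 of 6 in FlipFlop CD4 against B6 CD8 T cells. Of all tested genes 13.2% rose in the former comparison and 4.17% in the latter. *Foxp3* was 3.01-fold higher in FlipFlop CD8 than in B6 CD4 T cells in mean CPM, and measured 0.967 ± 0.433 CPM in B6 CD8 and 1.99 ± 0.35 in FlipFlop CD4 libraries (SD, n = 3). Memory or effector markers, 8 genes with *Cd44* among them, summed to 367 to 467 CPM in B6 CD4, 789 to 1135 in FlipFlop CD8, 845 to 934 in B6 CD8 and 499.6 to 580.4 in FlipFlop CD4 libraries. The 8 were split. In B6 CD4 against B6 CD8 1 was called higher and 5 lower (14.6% and 10.8% of all tested genes). In FlipFlop CD4 against FlipFlop CD8 1 was higher and 3 lower (15.3% and 16.0%). The part of these transcripts in the values of *Gcnt1*, *St3gal2* and *St8sia6* was not tested, and in these sorted populations a different number of cells of a type and a different amount of RNA per cell cannot be told apart.

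The genes whose profile over the 12 libraries was nearest to a member were sought among genes averaging at least 10 CPM, by the root mean square (RMS) difference of the log2 values after centering each gene on its own mean. Nearest to *Gcnt1* were *Ikzf4* (RMS 0.353), *Fam129a* (0.371) and *Cyfip1* (0.387). Nearest to *St3gal2* were *Cd81* (0.297), *Tbc1d4* (0.337) and *Sp6* (0.350). *St8sia6* had no gene as close, the nearest being *Ecm1* (0.800), *St3gal2* itself (0.839) and *Ctla4* (0.851). *Ecm1* measured 59.4, 61.3, 3.44 and 9.32 CPM on average in B6 CD4, FlipFlop CD8, B6 CD8 and FlipFlop CD4 T cells, so that its level in FlipFlop CD4 T cells was also above that in B6 CD8 T cells, though by less than that of *St8sia6*.

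The lineage effect was also examined in the genes around these enzymes, where 39.3% of all tested genes were called. Of 12 other sialyltransferases listed, 7 were in the table and 5 were tested, of which 3 rose and 2 fell in the helper-lineage groups. CD4 minus CD8, 3 were higher and 2 lower in B6, and 2 higher and 3 lower in FlipFlop mice. Of all tested genes 25.4% were called in B6 (14.6% higher and 10.8% lower). In FlipFlop mice 31.3% were called (15.3% higher and 16.0% lower). *St3gal5*, which makes GM3, the substrate of GD3 synthase, had an effect of 2.02 and was near its limit of detection in the cytotoxic-lineage groups, at 0.22 CPM in B6 CD8 and 0.22 in FlipFlop CD4 against 2.34 in B6 CD4 and 2.51 in FlipFlop CD8 T cells. It passed the filter on low values through the helper-lineage groups alone. The same was true of *St6galnac6* (1.20), with 2 of 6 cytotoxic-lineage libraries at 1 CPM, so the count of 3 is a description. *St6galnac3* (1.09) rose and *St3gal3* fell (-0.75).

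Of 11 tested genes for the supply and removal of sialic acid, 2 rose and 2 fell. CD4 minus CD8, 2 were lower in B6, and 1 was higher and 1 lower in FlipFlop mice. Over all tested genes the shares called were 39.3% for the lineage effect, 25.4% in B6 and 31.3% in FlipFlop mice. *Cmah*, which converts the acetyl to the glycolyl form of sialic acid, had a lineage effect of -1.18 and measured 94.6 ± 28.2 CPM in B6 CD4, 97.8 ± 9.11 in FlipFlop CD8, 214 ± 11.7 in B6 CD8 and 217 ± 24.6 in FlipFlop CD4 T cells (SD, n = 3). The sialidase gene *Neu3* (0.50) and the sialic acid transporter gene *Slc35a1* (0.21) rose, and *Siae*, for a sialic acid esterase, fell (-0.18, or -0.064 with an adjusted p of 0.433 without the TMM factor). The *Slc35a1* call was also lost without any of 6 single libraries (adjusted p of 0.0517 to 0.0635) and the *Siae* call without any of 7 (0.0502 to 0.0818). Of 18 tested genes listed for the start, cores and extension of O-glycans, 2 rose and 6 fell. The list is not confined to O-glycans, since *B3gnt5* and *B4galt5* on it also belong to glycolipid synthesis. These counts are therefore not of O-glycan enzymes alone. In B6 CD4 against B6 CD8 T cells 4 were higher and 3 lower, and in FlipFlop CD4 against FlipFlop CD8 T cells, where CD8 is the helper lineage, 4 were higher and 1 lower. Among the galactosyltransferases *B4galt4* rose (1.43), having passed the filter on low values through the helper-lineage groups alone, and *B4galt7* (-0.75) and *B4galt5* (-0.53) fell, as did *B3gnt5* (-0.94), which starts lacto-series glycolipids.

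Genes of selectin ligand assembly split, with 2 of 6 tested higher and 3 lower, as in B6 alone, and 3 higher and 2 lower in FlipFlop CD4 than in FlipFlop CD8 T cells. *Chst2*, a sulfotransferase (2.29), and *Fut7*, the fucosyltransferase that completes sialyl Lewis x (1.45), were higher in the helper-lineage groups, whereas *Tpst2*, a tyrosine sulfotransferase (-0.84), and *Selplg*, the P-selectin ligand PSGL-1 (-0.54), were lower. *Fut7* measured 2.34 CPM in B6 CD4, 6.14 in FlipFlop CD8, 1.15 in B6 CD8 and 0.98 in FlipFlop CD4 T cells on average. Of 5 tested ganglioside genes 1 rose, *St3gal5*, and 2 fell, *B4galnt1* (-0.55) and *B4galt5*. In B6 CD4 against CD8 T cells 2 were higher and 2 lower, and in FlipFlop mice 2 higher and 1 lower. Of 11 tested genes of N-glycan branching 3 rose and 4 fell, led by *Man1c1* (1.29), *Mgat4a* (-0.61), *Man1a* (-0.37, or -0.25 with an adjusted p of 0.144 without the TMM factor) and *Mgat5* (0.35). In B6 CD4 against CD8 T cells 1 was higher and 4 lower, and in FlipFlop mice 2 higher and 3 lower. Beside these 3 lists, the shares of all tested genes called were 39.3% for the lineage effect, 25.4% in B6 and 31.3% in FlipFlop mice. The *Man1a* call was also lost without any of 6 single libraries (adjusted p of 0.0516 to 0.0651).

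Of 8 tested glycoproteins that carry such glycans, 1 rose and 3 fell with the helper lineage. In B6 CD4 against CD8 T cells 1 was higher and 3 lower, and in FlipFlop mice 3 higher and 1 lower. Over all tested genes the shares called were 39.3% for the lineage effect, 25.4% in B6 and 31.3% in FlipFlop mice. *Cd44* rose (1.35) and *Nrp2* (-1.97), *Cd7* (-0.99) and *Selplg* fell. *Nrp2*, which encodes neuropilin-2, a carrier of polysialic acid, measured 26.7 ± 2.73 CPM in B6 CD8 but 4.28 ± 1.53 in FlipFlop CD4 T cells, with 2.74 ± 0.52 in B6 CD4 and 2.06 ± 0.34 in FlipFlop CD8 T cells (SD, n = 3). Its strain effect was -1.44 (adjusted p = 3.19e-05) and its coreceptor effect -1.11 (adjusted p = 8.16e-04), both opposite in sign to those of *St8sia6*. Of 9 Siglec receptors listed, which bind sialic acid, 2 were tested. *Cd22* had a lineage effect of 0.73 (adjusted p = 0.00962) and measured 7.36 ± 2.15 CPM in B6 CD4, 10.4 ± 3.37 in FlipFlop CD8, 6.16 ± 1.68 in B6 CD8 and 4.02 ± 0.74 in FlipFlop CD4 T cells (SD, n = 3). It was called lower in FlipFlop CD4 than in FlipFlop CD8 T cells (-1.23, adjusted p = 0.00441), whereas in B6 mice the difference was 0.23 (adjusted p = 0.604). *Siglec1* reached 1 CPM in all 3 libraries of FlipFlop CD8 (1.03 to 1.61 CPM) and otherwise in 1 B6 CD8 library (1.12), with means of 0.593 CPM in B6 CD4, 0.583 in B6 CD8 and 0.458 in FlipFlop CD4, so that it was tested because of the group where it was high. Its B6 difference was 0.083 (adjusted p = 0.857), and its lineage effect of 0.50 is given as a description. *Cd22* is also one of the B cell markers, and the B cell markers other than *Ighm*, 7 genes with *Cd22* among them, summed to 52.7 to 69.8 CPM in B6 CD4, 45.2 to 52.2 in FlipFlop CD8, 53.1 to 73.5 in B6 CD8 and 39.1 to 59.7 in FlipFlop CD4 libraries. *Ighm* alone averaged 503 to 571 CPM in the 4 groups. Their part in the value of *Cd22* was not tested. The *Siglec1* lineage effect no longer passed with the replicate number as a block (adjusted p = 0.0562) and without any of 9 libraries.

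**Figure D4:**
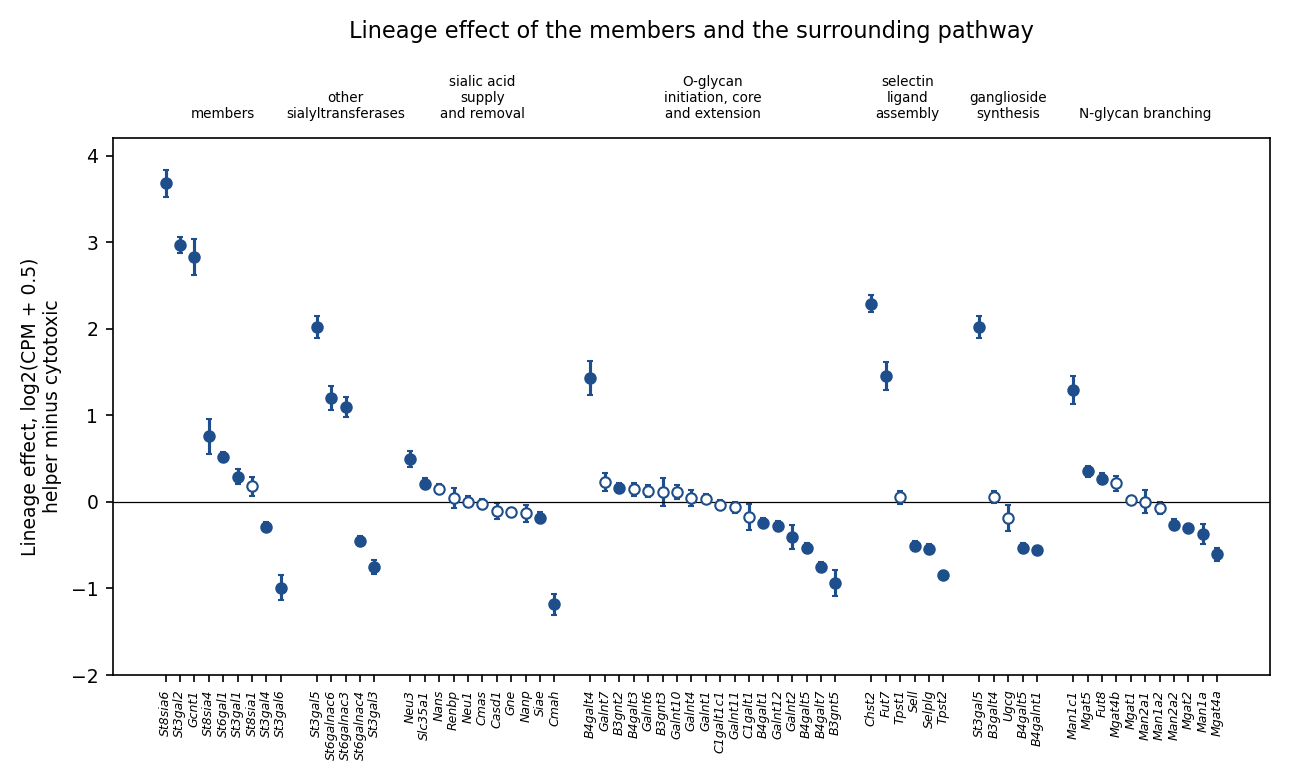
Lineage effect, the mean of B6 CD4 and FlipFlop CD8 minus the mean of B6 CD8 and FlipFlop CD4 T cells on the log2(CPM + 0.5) scale (vertical axis), for the 9 genes and for tested genes of 6 surrounding groups. Points are estimates with standard errors, filled where the adjusted p was under 0.05. *St8sia6* (3.68), *St3gal2* (2.96) and *Gcnt1* (2.83) stand above every gene of the other groups, of which *Chst2* (2.29) is the highest.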

How the data were processed

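RNA was measured in 12 libraries, 3 in each of 4 groups. Per the methods, total RNA was made into libraries with a low-input kit, sequenced as paired-end reads and aligned to mm10 with STAR. The submitters' processing notes name Trimmomatic, TopHat and mm10. The counting program, the gene annotation and the limit of the filter on low values are not given in the sources used here. The deposited table holds normalized expression signal, which the authors computed as CPM scaled by TMM, and its columns sum to 875501 to 1081793. Its 12809 identifiers all matched GENCODE M21. Steps between low values gave the reads per library, and whole reads made up 85.6% to 87.3% of values under 100 CPM (within 0.02 of a read), too few for a test on counts. No 2 of the 12 libraries were identical (66 pairs compared).

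The tests covered the 11595 genes that reached 1 CPM in 3 or more libraries, and 1214 were left out. The model, in limma 3.58.1 under R 4.3.3, had a mean for each group and 8 residual degrees of freedom, used values of log2(CPM + 0.5), and moderated the variances along their trend with the mean level (eBayes). The p-values are two-sided. On simulated data for the B6 comparison, 11595 genes of which 200 were changed, 172 of the changed genes and 2 others were called. The simulated errors were normal and independent between libraries, and fewer genes were changed than were called in the data. These counts check the fit and do not give its error rate in the data. Same-numbered FlipFlop CD4 and CD8 libraries deviated together from their group means (r = 0.44, 0.27 and 0.51 over genes), those of B6 less so (0.18, 0.089 and 0.35), and no source says what a number stands for. The 9 genes and the lists around them were chosen with earlier results of these data known. Named beside them are up to 4 called genes of each list with the largest lineage effect, those with a called strain or coreceptor effect over 1, and the 3 nearest profiles of the 3 genes whose group means spread most. Figures were drawn with matplotlib 3.10.9.

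Alternatives were pseudocounts of 0.1 and 1, all genes, genes averaging at least 5 CPM, no TMM factor, median-of-ratios rescaling, no trend, a replicate block, fits of the 6 libraries compared, 2 fold limits and the omission of single libraries. The stricter fold rule is that of the study's heat map, taken here as an unadjusted p. The study's methods name a looser p with the same fold. The same alternatives were applied to the surrounding genes after their values had been seen.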

Additional observations from a re-analysis of the deposited data

Results flagged for a closer look

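The CD4 minus CD8 difference differed between B6 and FlipFlop mice, by the test of that difference in limma (the lineage effect, which is the difference divided by 2, adjusted p under 0.05 over all tested genes), for 8 of the 9 genes. The lineage effect was 3.68 for *St8sia6*, 2.96 for *St3gal2*, 2.83 for *Gcnt1*, 0.76 for *St8sia4*, 0.52 for *St6gal1*, 0.29 for *St3gal1*, -0.28 for *St3gal4* and -0.99 for *St3gal6*. Of all 11595 tested genes, 39.3% were called in the same test. *Gcnt1* passed the filter on low values through the helper-lineage groups alone, so its place in this count is a description. The 9 genes were also chosen with earlier results of these data known.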

How the results depend on the processing

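The 30 called differences of the 9 genes were refitted 612 times under 21 alternatives. In 588 refits they kept their direction and stayed called, in 24 they lost the call, and in 0 they changed sign. The 24 belonged to the B6 difference of *St3gal1*, the FlipFlop difference of *St3gal4* and the coreceptor effect of *St3gal2*. The *St8sia1* difference in FlipFlop T cells ran from -0.058 to 0.040 with 1 library left out and changed sign without FlipFlop CD8 replicate 3 and without FlipFlop CD4 replicate 2, and the FlipFlop CD8 minus B6 CD4 difference of *St8sia6* ran from -0.14, without B6 CD4 replicate 1, to 0.22. None of these was called.

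At an unadjusted p under 0.0001 and more than a 5-fold change the number of the 9 genes called was 3 in B6, 2 in FlipFlop, 3 for lineage, 0 for coreceptor and for strain, 1 in FlipFlop CD4 against B6 CD8 and 0 in FlipFlop CD8 against B6 CD4 T cells. With at least a 2-fold change it was 4 in B6, 4 in FlipFlop, 3 for the lineage effect, 1 for coreceptor and 2 for strain, and stayed at 2 in FlipFlop CD4 against B6 CD8 and at 1 in FlipFlop CD8 against B6 CD4, beside 0.638% to 9.06% of all tested genes. Without the TMM factor the coreceptor effect called 1 gene (706 of all 11595) and FlipFlop CD8 against B6 CD4 called 3 (3388), with a replicate block the latter called 2 (4022), and among genes averaging at least 5 CPM, which leaves out *Gcnt1*, it called 0 (2429 of 9208). The replicate block added the coreceptor effect of *Gcnt1* and the FlipFlop CD8 minus B6 CD4 difference of *St3gal2*, and changed no other call of the 9 genes. With 1 library left out the counts ran from 6 to 9 in B6 (2245 to 3198 over all tested genes), 6 to 7 in FlipFlop (2698 to 4411), 8 to 9 for lineage (3918 to 5219), 1 to 3 for coreceptor (352 to 605), 3 to 4 for the strain effect (2367 to 4008), 2 to 3 in FlipFlop CD4 against B6 CD8 (490 to 1566) and 1 to 2 in FlipFlop CD8 against B6 CD4 T cells (1527 to 3745).

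Removing the TMM factor moved the median of all genes to -0.13 in the FlipFlop comparison, 0.10 for the strain effect and 0.15 for FlipFlop CD8 minus B6 CD4. Among the 26 surrounding genes named, 483 of 514 refits of the lineage effect kept direction and call, and the other 31 lost the call, in 4 genes (*Slc35a1*, *Siae*, *Man1a* and *Siglec1*). The cause of these changes was not tested.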
